A study of Schizosaccharomyces pombe with 72 samples.

Results

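The 9 heat shock chaperone genes hsp9 (SPAP8A3.04c), hsp16 (SPBC3E7.02c), hsp104 (SPBC16D10.08c), hsp90 (SPAC926.04c), ssa1 (SPAC13G7.02c), ssa2 (SPCC1739.13), sti1 (SPCC645.14c), mas5 (SPBC1734.11) and psi1 (SPCC830.07c) of fission yeast (Schizosaccharomyces pombe) were examined, out of 5112 protein-coding genes in the tables. They were taken by gene name, and no threshold on a measured value was part of the rule. Strand-specific mRNA libraries were counted with the transcript on its own strand (sense) and on the opposite strand (antisense) for mutants that lack a chromatin remodeler or the elongation factor Prf1. By the labels, all strains carried h+ ade6-M216 ura4-D18 leu1-32, and all cultures grew without treatment in rich YES medium at 32 ºC to an OD600 of about 0.5, so no culture was heat shocked. Every group had 3 libraries, which the study describes as biological replicates.

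Experiment A held single deletions in 2 batches, and each batch, like each other experiment, had a WT group with only the shared markers. Batch A-b1 held kanMX deletions of fft2, fft3, hrp1, hrp3, mit1, rrp1, rrp2, irc20 and swr1, which encode remodelers of several families. Batch A-b2 held hygMX deletions of the remodeler genes fft1 and snf22. Experiment B held hrp1Δ (kanMX), hrp3Δ (kanMX) and hrp1Δhrp3Δ, and so removed the remodelers Hrp1 and Hrp3 of the CHD family separately and together. By the labels, in experiment C only 1 CHD gene was left, with the C-terminus of its paralog: hrp3-CT(hrp1) in a strain without hrp1, and hrp1-CT(hrp3) in a strain without hrp3. Experiment D held hrp1Δhrp3Δ, prf1Δ and the triple mutant hrp1Δhrp3Δprf1Δ. Mutants were set against the WT libraries made in the same experiment or batch, giving 19 comparisons.

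Chaperones keep other proteins folded. Hsp70 proteins (ssa1, ssa2) bind unfolded stretches with the help of J-domain proteins (mas5, psi1), Hsp90 (hsp90) finishes the folding of selected clients, and Sti1 (sti1) bridges Hsp70 and Hsp90. Hsp104 (hsp104) pulls proteins out of aggregates, and the small heat shock protein Hsp16 (hsp16) holds unfolded proteins. Hsp9 (hsp9) is a small stress protein related to budding yeast Hsp12. Heat shock factor (hsf1) activates many such genes through repeats of the unit nGAAn in their promoters, and small heat shock genes are also induced by the general stress pathway of fission yeast.

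The promoters were searched for a pair of inverted heat shock factor units, written GAANNTTC or TTCNNGAA, from 250 bases before to 50 bases after the annotated transcript start in RefSeq (assembly ASM294v3). Both motifs read the same on either strand and can overlap. At least 1 of them was in the promoters of 7 of the 9 genes, against 19.9% of 5123 promoters of the same length. All 7 held GAANNTTC, which was in 11.1% of promoters. The 60-base windows around the matches of 5 members are printed as examples, with the matched bases in capitals. They were picked with the changes in these data known. hsp104 rose in the same A-b1 groups as hsp90 but held neither motif. Of those groups, hsp16 was called lower for fft2Δ, fft3Δ, hrp1Δ, hrp3Δ and mit1Δ and was not called for rrp1Δ or rrp2Δ. Only its falls for hrp3Δ and mit1Δ stood without WT replicate 1. Whether the motif is related to any change was not tested.
hsp90 (chromosome I, minus strand, ASM294v3): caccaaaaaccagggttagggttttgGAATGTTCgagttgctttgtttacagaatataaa
ssa1 (chromosome I, minus strand, ASM294v3): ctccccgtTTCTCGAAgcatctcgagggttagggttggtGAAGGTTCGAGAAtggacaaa
ssa2 (chromosome III, plus strand, ASM294v3): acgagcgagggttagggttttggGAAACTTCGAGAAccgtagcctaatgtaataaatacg
psi1 (chromosome III, minus strand, ASM294v3): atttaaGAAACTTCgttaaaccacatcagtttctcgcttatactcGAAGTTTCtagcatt
hsp16 (chromosome II, minus strand, ASM294v3): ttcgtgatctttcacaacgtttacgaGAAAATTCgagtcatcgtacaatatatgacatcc
In ssa1 and ssa2 the pair was followed by a further unit in register (GAANNTTC directly followed by NNGAA), an arrangement found in 0.468% of promoters. The promoters of hsp90, ssa1 and ssa2 held GGGTTAGGG or its complement, which was in 0.488% of promoters and was searched for after these windows had been read. sti1 and mas5 held GAANNTTC, at 93 and 224 bases before the start. Neither 8-base motif was in the windows of hsp9 or hsp104, which says only that these letters are not there.

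The table entries of the 9 genes are their coding sequences, of 207 bases (hsp9) to 2718 bases (hsp104). CPM are estimated counts scaled to a library total of 1000000. Levels of different genes are compared only as TPM, which has the same scaling after division by entry length. Library totals were 470206 to 38590464 estimated counts, apart from the triple mutant replicate 2 of D with 3657. That library, hrp1Δhrp3Δ replicate 1 and WT replicate 3 of D stood apart: their correlation with the median library was under 0.8, against at least 0.903 in the other 69. ura4, which is deleted in all strains, had no count in 68 of 72 libraries and at most 2 in the others. The deleted gene was called lower in 13 of 23 checks. In A-b1, fft2 was higher in the libraries labelled fft2Δ (55.9 CPM, against 26.3 CPM in WT), and hrp1, hrp3 and rrp1 were not called lower in those labelled hrp1Δ, hrp3Δ and rrp1Δ. In B the deleted genes were called lower, but counts of them remained in the single deletions. hrp3 had a mean of 25.3 CPM in hrp3Δ of B, against 55.8 CPM in WT and 0 CPM in hrp1Δhrp3Δ. hrp1 had 9.7 CPM in hrp1Δ of B, against 51.1 CPM in WT. In D hrp1 and prf1 did not pass as lower. In C the CHD gene missing by the label was not called lower in either group. hrp1, missing by the label, had 58.7, 117 and 85.2 CPM in libraries labelled hrp3-CT(hrp1), and hrp1, kept by the label with another C-terminus, had 39.3, 50.4 and 42.4 CPM in those labelled hrp1-CT(hrp3), against 96.9, 87.8 and 86.5 CPM in WT. hrp3, kept with another C-terminus, had 50.4, 37.4 and 39.2 CPM in libraries labelled hrp3-CT(hrp1), and hrp3, missing by the label, had 82, 85.1 and 83.1 CPM in those labelled hrp1-CT(hrp3), against 63.3, 56.8 and 66.8 CPM in WT. In both groups the missing gene was thus not called lower and the kept gene was (adjusted p = 0.000122 for hrp1 and 0.00631 for hrp3, edgeR). The kept gene has another C-terminus by the label, so fewer counts of its entry alone do not go against the label. Which strain the libraries of each C group came from was not settled here, and groups are named by their labels throughout. Of the mating-type markers, the h+ genes map2 and map3 had medians of 1.19 and 5.33 CPM and the h- genes mam2, mfm2, mfm1 and mfm3 had medians of 5.31, 3.0, 0.18 and 0 CPM; mfm3 had counts in 11 libraries.

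Even in WT the level of these genes depended on the experiment. hsp9 and hsp16, the shortest entries, had the highest TPM in WT of A-b1, at 11490 ± 3882 and 3596 ± 1100 TPM (SD, n = 3). The value of so short an entry depends strongly on the length used to compute TPM. The other members followed at 250.1 ± 72.3 TPM for hsp90 down to 56.7 ± 4.99 TPM for sti1, and neighbours such as ssa1 and ssa2, at 209 ± 27.9 and 202 ± 45 TPM, lay within 1 SD of each other. In WT of B hsp9 was again the highest, at 5645 ± 527 TPM, but ssa2 came next with 1608 ± 65 TPM, then hsp90 with 1069 ± 107 TPM. hsp16 had 218 ± 89.1 TPM there and hsp104 was the lowest, with 19.6 ± 2.25 TPM (SD, n = 3). In CPM, hsp16 averaged 15.2 times as much in WT of A-b1 as in WT of B, and ssa2 averaged 7.58 times as much in WT of B as in WT of A-b1. psi1 differed by only 1.34 times among the WT groups of A-b1, A-b2, B and C. Of these groups, WT of A-b1 had the lowest mean CPM of hsp90, ssa2, sti1 and mas5. It had the highest of hsp9, hsp16, hsp104 and ssa1. Whether cultures, libraries or sequencing set these WT levels cannot be told apart. Together the 9 genes took 1.29% ± 0.12% of all counts for hrp3Δ of A-b1, against 0.831% ± 0.184% in WT of A-b1, and 1.92% ± 0.0179% in hrp3Δ of B, against 1.59% ± 0.0431% in WT of B (SD, n = 3).

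A gene was called changed at a Benjamini-Hochberg adjusted p under 0.05 in the edgeR quasi-likelihood test over all features of an experiment or batch, and log2 ratios are mutant over WT after scaling between libraries by TMM factors over sense and antisense entries. A fitted ratio can therefore differ from the ratio of the printed CPM, which are not TMM-scaled. The 9 genes gave 171 sense tests, of which 44 were called higher and 21 lower. In A-b1 alone 38 of 81 were higher and 8 lower, so most of the rises came from that batch, whose 9 comparisons share the same 3 WT libraries. For every member except psi1 these WT libraries had the lowest or the highest mean CPM of the WT groups, with D left out. In these bulk libraries fewer expressing cells and less RNA per cell cannot be told apart.

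**Figure D1:**
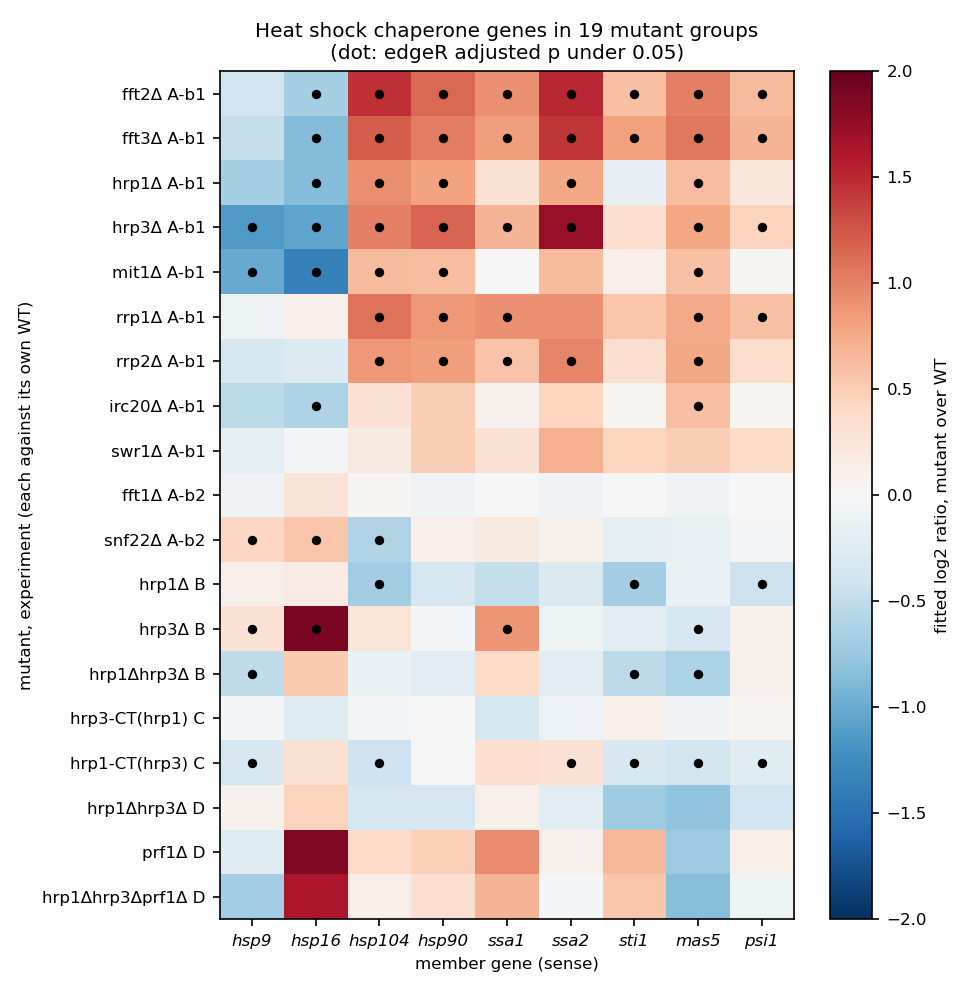
Log2 ratio of sense counts (mutant over WT, colour) for the 9 genes (columns) in the 19 mutant groups (rows), with a dot where the edgeR adjusted p was under 0.05. In A-b1 hsp104 and hsp90 were called higher in 7 of 9 groups and hsp16 lower in 6 of 9, while the largest rise of hsp16, 1.88, was in hrp3Δ of B.

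The chaperone genes were called most often in the libraries labelled fft2Δ and fft3Δ of A-b1, where 7 of 9 rose and hsp16 fell, and in those labelled hrp3Δ. Among all protein-coding genes tested, 19% rose and 15.3% fell in those labelled fft2Δ, and 13.3% rose and 10.7% fell in those labelled fft3Δ. The median log2 ratio of the 9 genes was 0.92 and 0.84, against 0.05 and 0.03 over all protein-coding genes. In those labelled hrp3Δ 6 rose and 2 fell (background 14% higher and 21% lower). In those labelled hrp1Δ 4 rose and 1 fell (background 14.2% and 12.1%). In the libraries labelled rrp1Δ and rrp2Δ (both genes are related to budding yeast Uls1), 5 of 9 rose in each, where the background was 1.13% higher and 0% lower for rrp1Δ and 4.29% higher and 3.04% lower for rrp2Δ. For mit1Δ 3 rose and 2 fell (background 6.55% and 4.89%). For irc20Δ 1 rose and 1 fell (background 13.4% and 11.2%), which is near the background. For swr1Δ edgeR called none, with 5 of 9 at an unadjusted p under 0.05 and none called by DESeq2 (background 2.53% and 2.09%).

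hsp104, which encodes the disaggregase, rose in 7 of the 9 groups of A-b1. It had 1259, 1758 and 1639 CPM in libraries labelled fft2Δ, against 689, 509 and 594 CPM in WT (log2 ratio 1.46 ± 0.15 (SE), adjusted p = 3.49e-07). The libraries labelled rrp1Δ had 1376, 1377 and 1071 CPM (log2 ratio 1.08 ± 0.15 (SE), adjusted p = 0.000432). All 3 libraries of each of these groups lay above all 3 WT libraries, as they did in every A-b1 group where hsp104 was called. For irc20Δ and swr1Δ the hsp104 ratios were 0.29 and 0.18 and were not called.

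hsp90 rose in the same 7 groups as hsp104. It had 3164, 2839 and 3403 CPM in libraries labelled hrp3Δ, against 1054, 1276 and 1436 CPM in WT (log2 ratio 1.16 ± 0.19 (SE), adjusted p = 2.95e-05). For fft2Δ it had 2313, 2841 and 2621 CPM (log2 ratio 1.15 ± 0.19 (SE), adjusted p = 0.000127). Again no mutant library overlapped WT. Without WT replicate 1 hsp90 kept its call for fft2Δ, fft3Δ, hrp1Δ and hrp3Δ. It lost its call for mit1Δ, rrp1Δ and rrp2Δ (adjusted p = 0.275, 0.143 and 0.202, edgeR). sti1, whose protein hands clients from Hsp70 to Hsp90, was called higher only for fft2Δ and fft3Δ among the A-b1 groups. It had 327, 488 and 423 CPM in libraries labelled fft3Δ, against 293, 225 and 204 CPM in WT (log2 ratio 0.81 ± 0.15 (SE), adjusted p = 0.000391), and the ratio for hrp1Δ was -0.16 with no call.

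The Hsp70 gene ssa2 reached the largest rise of any member in A-b1, with 3417, 3184 and 3808 CPM in libraries labelled hrp3Δ, against 938, 836 and 1016 CPM in WT (log2 ratio 1.74 ± 0.24 (SE), adjusted p = 3.34e-06). It also rose for fft2Δ, fft3Δ, hrp1Δ and rrp2Δ, with log2 ratios of 1.5, 1.43, 0.78 and 0.97. Its paralog ssa1 had 1785, 1929.9 and 1835 CPM in libraries labelled rrp1Δ, against 1173, 849 and 901 CPM in WT (log2 ratio 0.92 ± 0.15 (SE), adjusted p = 0.00169). The groups did not overlap in either comparison. ssa1 was called higher in 5 groups, those labelled fft2Δ, fft3Δ, hrp3Δ, rrp1Δ and rrp2Δ. Without WT replicate 1 ssa2 lost its call for hrp1Δ and rrp2Δ and ssa1 for rrp2Δ, while their other A-b1 calls stood. The coding sequences of ssa1 and ssa2 are identical at 83.0% of aligned bases, but only 1.36% of the 31-base words of ssa1 and 1.83% of those of ssa2 are shared, so few fragments could match both genes.

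Of the J-domain genes, mas5 was called in more A-b1 groups than any other member, 8 of 9. It had 513, 452 and 438 CPM in libraries labelled fft3Δ, against 215, 246 and 270.2 CPM in WT (log2 ratio 1.05 ± 0.17 (SE), adjusted p = 0.000114). In libraries labelled irc20Δ, where no other member rose, it had 382, 420.2 and 337 CPM (log2 ratio 0.60 ± 0.17 (SE), adjusted p = 0.0192). None of these mutant libraries overlapped WT. Without WT replicate 1 mas5 kept its call only for fft2Δ, fft3Δ and hrp3Δ. Its ratio for irc20Δ was then 0.51 (adjusted p = 0.193, edgeR). psi1 rose less, in the 4 groups labelled fft2Δ, fft3Δ, hrp3Δ and rrp1Δ, with log2 ratios of 0.63, 0.69, 0.45 and 0.59. For fft3Δ it had 369, 462 and 461 CPM, against 309, 281 and 244 CPM in WT, again without overlap.

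The small heat shock gene hsp16 went the other way in A-b1 and was called lower in 6 of 9 groups. It had 849.9, 834 and 927 CPM in libraries labelled mit1Δ, against 3346, 1689 and 1648 CPM in WT (log2 ratio -1.36 ± 0.21 (SE), adjusted p = 0.000193). hsp9 had 876, 760.1 and 740.1 CPM in libraries labelled hrp3Δ, against 2409.9, 1201 and 1083 CPM in WT (log2 ratio -1.13 ± 0.25 (SE), adjusted p = 0.000731). For mit1Δ it also fell, to 825, 782 and 731 CPM (adjusted p = 0.0167). WT replicate 1 stood far above the other WT libraries in both genes, while every called mutant library lay below all 3 WT libraries. Without WT replicate 1 the fall of hsp16 was called only for hrp3Δ (-0.65 ± 0.18 (SE), adjusted p = 0.00714) and mit1Δ (-0.95 ± 0.18 (SE), adjusted p = 0.00374). The hsp16 ratios for fft2Δ, fft3Δ, hrp1Δ and irc20Δ became -0.25, -0.46, -0.46 and -0.21 without it, and none was called. hsp9 kept its call for hrp3Δ (-0.69) and lost it for mit1Δ (-0.55).

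**Figure D2:**
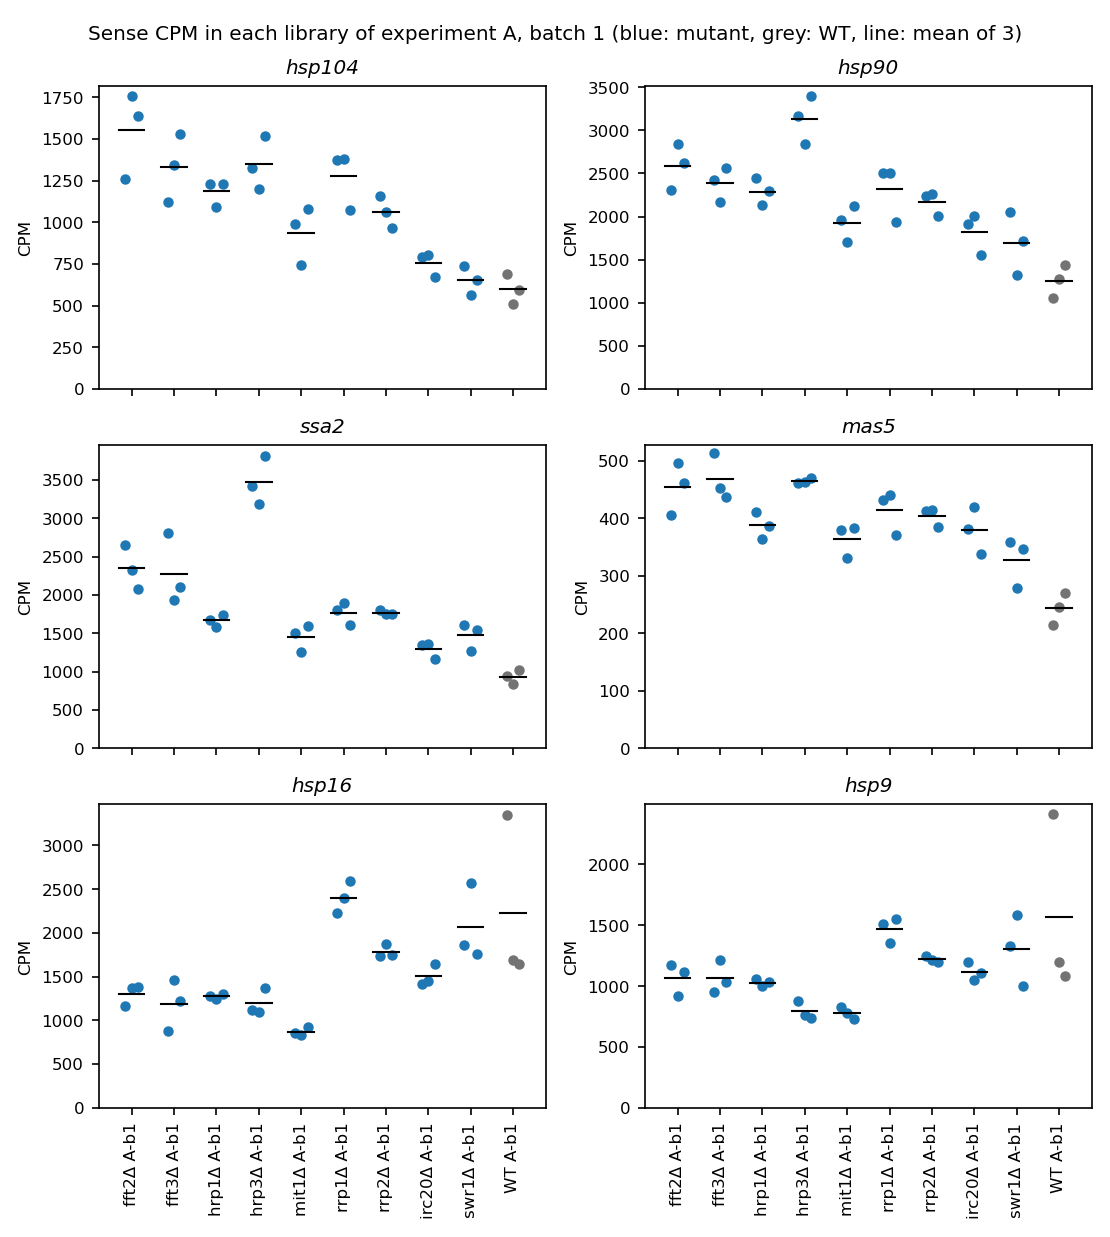
Sense CPM of 6 genes in every library of A-b1 (points, blue for mutants and grey for WT; lines are means of 3 libraries), with WT at the right. hsp104, hsp90, ssa2 and mas5 stood above WT in most mutants, while hsp16 and hsp9 had 1 WT library, at 3346 and 2409.9 CPM, far above the other WT libraries.

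Several of the smaller A-b1 counts rested on single libraries or on the shared estimate of the spread. Fitted with the mutant and WT libraries alone, 3 members were called for fft2Δ, 3 for fft3Δ, 1 for mit1Δ, 0 for rrp1Δ, 1 for rrp2Δ and 1 for irc20Δ, and those for fft2Δ and fft3Δ were rises of hsp104 and mas5 in each, with ssa2 for fft2Δ and sti1 for fft3Δ. Without WT replicate 1 the counts were 2 for hrp1Δ, 2 for mit1Δ, 1 for rrp2Δ and 0 for irc20Δ, and they were 7 for fft2Δ, 7 for fft3Δ and 9 for hrp3Δ. Without WT replicate 2 they were 2 each for mit1Δ, rrp1Δ and rrp2Δ, and without WT replicate 3 the count was 4 for irc20Δ. Leaving out a mutant library lowered the count to 3 for hrp1Δ (replicate 1), to 1, 3 and 2 for mit1Δ (replicates 1, 2 and 3), to 2 for rrp1Δ (replicates 1 or 2), to 1 for rrp2Δ (replicates 1 or 2) and to 0, 0 and 1 for irc20Δ (replicates 1, 2 and 3).

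Among 33 other genes of protein folding (Hsp70 partners, J-domain proteins, Hsp90 co-chaperones, chaperonins, other heat shock proteins and hsf1), 31 were matched and tested. For fft2Δ 13 rose and 3 fell, with a median log2 ratio of 0.27; for hrp3Δ of A-b1 9 rose and 3 fell, with a median of 0.24. Over all protein-coding genes 19% rose and 15.3% fell for fft2Δ, and 14% rose and 21% fell for hrp3Δ. hsp78, the mitochondrial relative of hsp104, was the largest rise of this list in 8 of the 9 groups of A-b1. For fft3Δ its ratio was the largest (log2 ratio 1.26 ± 0.15 (SE), adjusted p = 1.7e-06). hsf1 itself was called higher for fft2Δ (log2 ratio 0.39 ± 0.14 (SE), adjusted p = 0.0382) and fft3Δ (log2 ratio 0.66 ± 0.14 (SE), adjusted p = 0.00148) and in no other A-b1 group. For mit1Δ the largest rise was scj1, a J-domain gene (log2 ratio 0.71 ± 0.14 (SE), adjusted p = 0.0045). The largest falls were hsp20, a further small heat shock gene, for fft2Δ (log2 ratio -1.18 ± 0.26 (SE), adjusted p = 0.00187) and mit1Δ (log2 ratio -0.91 ± 0.26 (SE), adjusted p = 0.0321); erj5, a J-domain gene, for hrp3Δ (log2 ratio -0.94 ± 0.17 (SE), adjusted p = 9.75e-05) and irc20Δ (log2 ratio -0.60 ± 0.17 (SE), adjusted p = 0.0197); git7, an Hsp90 co-chaperone gene, for hrp1Δ (log2 ratio -0.81 ± 0.22 (SE), adjusted p = 0.0115); and sil1, an Hsp70 partner, for fft3Δ (log2 ratio -0.62 ± 0.18 (SE), adjusted p = 0.0147). hsp20 had 145, 75.4 and 72.2 CPM in WT, so WT replicate 1 stood far above the other WT libraries, as for hsp16. The mutant libraries of both hsp20 falls lay below all WT libraries, and results without WT replicate 1 are not given for it. Of 10 general stress genes such as ctt1 (catalase) and gpd1 (glycerol synthesis), 9 were tested. Of these, 5 rose and 2 fell for fft2Δ, and 1 rose and 3 fell for hrp3Δ, where the 1 rise of 9 is near the background.

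In A-b2 the deletion of fft1 left the members near WT. edgeR called none of them, none had an unadjusted p under 0.05 and DESeq2 called none (background 0% higher and 0.0206% lower). In snf22Δ, which lacks the ATPase of a SWI/SNF-type remodeler, 2 members rose and 1 fell (background 21.8% higher and 20.5% lower), so the count was not above the background. hsp104 fell to 358, 311 and 310.4 CPM in snf22Δ, against 434, 541 and 589 CPM in WT (log2 ratio -0.60 ± 0.13 (SE), adjusted p = 0.00397). hsp9 had 494, 489.6 and 471 CPM in snf22Δ, against 360, 363 and 431 CPM in WT (log2 ratio 0.41 ± 0.06 (SE), adjusted p = 0.000202), and hsp16 had 389, 387 and 320.2 CPM, against 206, 284 and 303 CPM (log2 ratio 0.55 ± 0.17 (SE), adjusted p = 0.0253). Neither overlapped WT. With the 2 groups alone the members called were 2 higher and 3 lower, and the rise of hsp16 was not called by DESeq2 (adjusted p = 0.0668) nor without WT replicate 1 or snf22Δ replicate 1 or 2. By the rule for named genes (largest called change whose libraries do not overlap WT), the wider list's largest rise was hsp20 (log2 ratio 0.55 ± 0.10 (SE), adjusted p = 0.000822) and the largest fall scj1 (log2 ratio -0.57 ± 0.06 (SE), adjusted p = 7.35e-06), and hsf1 fell (log2 ratio -0.38 ± 0.07 (SE), adjusted p = 0.000979).

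In experiment B hsp16 in hrp3Δ had the largest rise of any member with a call in all 19 comparisons. It had 747, 571 and 618 CPM in hrp3Δ, against 165, 190.5 and 83.6 CPM in WT (log2 ratio 1.88 ± 0.30 (SE), adjusted p = 0.000189). ssa1 had 593, 505 and 588 CPM in hrp3Δ, against 238, 279 and 238 CPM in WT (log2 ratio 0.88 ± 0.17 (SE), adjusted p = 0.000844), and hsp9 had 1649.9, 1401 and 1589.6 CPM, against 1003, 1124 and 991 CPM (log2 ratio 0.29 ± 0.11 (SE), adjusted p = 0.0419). All 3 mutant libraries of these genes lay above WT, so in hrp3Δ 3 members rose, while mas5 fell with overlapping libraries (log2 ratio -0.33). The background was 6.48% higher and 30.9% lower. hsp9 lost its call without WT replicate 1 or 2 or hrp3Δ replicate 1 or 3.

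In hrp1Δ of B 3 members fell and none rose (background 3.12% higher and 7.23% lower). hsp104 had 97.9, 64 and 91.9 CPM in hrp1Δ, against 126, 131 and 112 CPM in WT (log2 ratio -0.70 ± 0.12 (SE), adjusted p = 0.00204). sti1 had 872, 655 and 754 CPM in hrp1Δ, against 1219, 1085 and 983 CPM in WT (log2 ratio -0.69 ± 0.10 (SE), adjusted p = 0.000715). psi1 had 212, 138 and 169 CPM, against 205, 231 and 192 CPM (log2 ratio -0.44 ± 0.12 (SE), adjusted p = 0.0272), with overlap, and lost its call without any single WT library or hrp1Δ replicate 2 or 3. hrp1Δ replicate 1 was the highest mutant library in hsp104, sti1 and psi1; without it 6 members fell. DESeq2 called 5. In hrp1Δhrp3Δ hsp9, sti1 and mas5 fell, with log2 ratios of -0.51, -0.52 and -0.63 (background 7.94% higher and 42.6% lower). The count was not above the background, and the libraries of hsp9 and sti1 overlapped WT. mas5 had 740.1, 668 and 713 CPM in the double mutant, against 814, 861 and 862 CPM in WT (log2 ratio -0.63 ± 0.10 (SE), adjusted p = 6.69e-05), without overlap.

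Scaling matters in these mutants, because the median log2 ratio of all protein-coding genes was -0.15 in hrp3Δ and -0.21 in hrp1Δhrp3Δ of B, where antisense counts rose. When the TMM factors were computed on protein-coding entries only, these medians moved by 0.16 and 0.22 towards higher. The members called were then 4 higher and 0 lower in hrp3Δ (all genes 14.5% higher and 15.9% lower) and 3 higher and 3 lower in hrp1Δhrp3Δ (19.6% and 20.3%). hsp16 (0.75 ± 0.30 (SE), adjusted p = 0.0469), ssa1 (0.60 ± 0.17 (SE), adjusted p = 0.00737) and psi1 (0.31 ± 0.11 (SE), adjusted p = 0.0376) were the added rises in the double mutant. The large rise of hsp16 in hrp3Δ did not depend on it (2.04 ± 0.30 (SE), adjusted p = 9.95e-05).

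**Figure D3:**
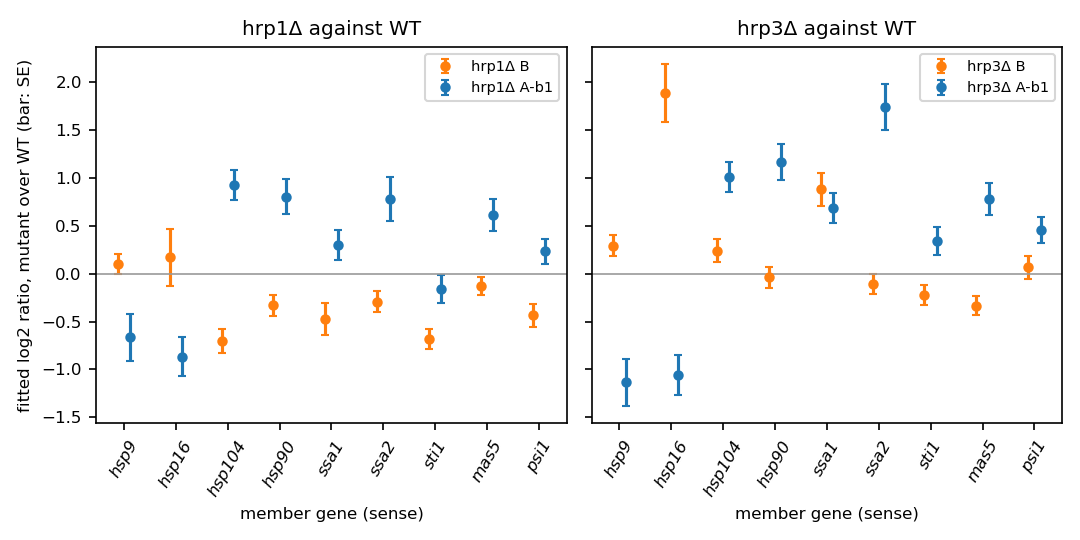
Log2 ratio against WT (points, with SE as bars) of each gene for hrp1Δ (left panel) and hrp3Δ (right panel), in B (orange, drawn left) and A-b1 (blue, drawn right). hsp16 had ratios of 1.88 in hrp3Δ of B and -1.06 for hrp3Δ of A-b1.

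The same deletions in B and A-b1 were compared with a test of the difference between their ratios. For hrp1Δ 5 of 9 members differed, all lower in B (background 11.9% of genes in either direction), and for hrp3Δ 5 of 9 differed, 2 higher and 3 lower in B (17.1%). For hrp3Δ the difference for hsp16 was 3.18 ± 0.46 (SE), adjusted p = 0.00016, and it stood without WT replicate 1 of A-b1 (2.74 ± 0.40 (SE), adjusted p = 0.000188). For hrp1Δ the difference for hsp104 was -1.65 ± 0.21 (SE), adjusted p = 0.000367. The WT levels of the 2 experiments differ, and in A-b1 hrp1 and hrp3 did not pass as lower in libraries labelled for their deletion, so experiment and label cannot be told apart in these differences. For hrp1Δhrp3Δ in D and B no member differed (0% of genes), and none had an unadjusted p under 0.05.

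Experiment C asks whether the C-termini of the paralogs are interchangeable. The CHD gene missing by the label was not called lower in either group, so no direction is tied to a strain. In libraries labelled hrp3-CT(hrp1) edgeR called no member, none had an unadjusted p under 0.05 and DESeq2 called none (background 5.04% higher and 4.49% lower). In libraries labelled hrp1-CT(hrp3) 1 member rose and 5 fell (background 7.24% higher and 49.4% lower). ssa2 had 2235, 2311 and 2266 CPM, against 1606, 1576 and 1586 CPM in WT (log2 ratio 0.29 ± 0.06 (SE), adjusted p = 0.00134). mas5 had 383, 416 and 403 CPM, against 461, 445 and 421 CPM in WT (log2 ratio -0.37 ± 0.07 (SE), adjusted p = 0.000661). Neither overlapped WT. The split depended on the scaling: with factors from protein-coding genes 4 members rose and 0 fell (all genes 20.3% and 21.1%), the median of all genes moved by 0.25 and the falls of hsp9, hsp104, mas5, sti1 and psi1 were not called. hsp16 (0.56 ± 0.16 (SE), adjusted p = 0.00959), ssa1 (0.59 ± 0.15 (SE), adjusted p = 0.00641) and hsp90 (0.23 ± 0.06 (SE), adjusted p = 0.00666) were higher under that scaling, beside ssa2. In the wider list the largest change was a fall of ubi4, polyubiquitin (log2 ratio -1.02 ± 0.09 (SE), adjusted p = 1.6e-06). In libraries labelled hrp3-CT(hrp1) it was a rise of ssc1, mitochondrial Hsp70 (log2 ratio 0.26 ± 0.06 (SE), adjusted p = 0.0298), and a fall of sil1 (log2 ratio -0.59 ± 0.09 (SE), adjusted p = 0.00154).

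In B the wider list rose most in hsp20 in hrp1Δ (log2 ratio 0.38 ± 0.11 (SE), adjusted p = 0.0365), hrp3Δ (log2 ratio 0.65 ± 0.11 (SE), adjusted p = 0.000266) and hrp1Δhrp3Δ (log2 ratio 0.49 ± 0.11 (SE), adjusted p = 0.00162). It fell most in wis2, an Hsp90 co-chaperone gene, in hrp1Δ (log2 ratio -0.33 ± 0.09 (SE), adjusted p = 0.0212), and in sks2, the Hsp70 gene of the ribosome, in hrp3Δ (log2 ratio -0.86 ± 0.11 (SE), adjusted p = 2.46e-05) and hrp1Δhrp3Δ (log2 ratio -1.10 ± 0.11 (SE), adjusted p = 1.29e-06). Of the 31 genes, 6 fell in hrp1Δ, 9 in hrp3Δ and 19 in hrp1Δhrp3Δ, with 1, 3 and 1 rising. Over all protein-coding genes 7.23%, 30.9% and 42.6% fell and 3.12%, 6.48% and 7.94% rose, so the 9 falls of 31 in hrp3Δ are near the background. hsf1 was not called in B, C or D.

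In experiment D the libraries that stood apart were low in most members. hrp1Δhrp3Δ replicate 1 and WT replicate 3 had 9.91 and 5.07 CPM of hsp104, while the other WT libraries had 352 and 530.5 CPM. Over all genes these 2 libraries were lower than the other WT libraries by a median log2 of 3.70 and 3.64 in entries over 1500 bases, and by 0.24 and 0.06 in entries under 500 bases. hsp9, with the shortest entry, had 1088 CPM in hrp1Δhrp3Δ replicate 1 and 668 and 807 CPM in the other hrp1Δhrp3Δ libraries, and 628 CPM in WT replicate 3, between the 762 and 536 CPM of the other WT libraries. hsp16 was lower in both than in the other libraries of their group. With all libraries edgeR and DESeq2 called no sense member in any of the 3 groups, and none had an unadjusted p under 0.05. The background was 0.447% higher and 0.264% lower for hrp1Δhrp3Δ, 0.956% and 3.86% for prf1Δ, and 0.915% and 3.17% for the triple mutant.

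hsp16 nevertheless had separate levels in prf1Δ and WT. It had 1793, 2054 and 2071 CPM in libraries labelled prf1Δ, against 226, 328 and 179 CPM in WT, and no library overlapped (log2 ratio 1.85 ± 1.23 (SE), adjusted p = 0.34). The triple mutant had 2088, 0 and 2286 CPM, where the 0 belongs to the library with 3657 counts. hrp1Δhrp3Δ had 251, 467 and 712 CPM. Without the 3 libraries hsp16 was called higher in prf1Δ (2.44 ± 0.31 (SE), adjusted p = 0.000221), the triple mutant (2.77 ± 0.33 (SE), adjusted p = 0.000264) and hrp1Δhrp3Δ (1.03 ± 0.31 (SE), adjusted p = 0.0366), and mas5 lower in prf1Δ (-1.04 ± 0.23 (SE), adjusted p = 0.00394). mas5 had 331, 421 and 397 CPM in prf1Δ, against 554, 654 and 20.3 CPM in WT, where the lowest WT library is replicate 3. hsp9 also lay above WT in every prf1Δ library, with 1423, 1276 and 1352 CPM, against 762, 536 and 628 CPM in WT, but its TMM-scaled ratio had the opposite sign and was not called (log2 ratio -0.24 ± 1.22 (SE), adjusted p = 0.94). Without the 3 libraries the ratio had the sign of the CPM and was not called (0.68 ± 0.28 (SE), adjusted p = 0.0632). Scaling is uncertain in D, where the median log2 ratio of all protein-coding genes was -0.67 for hrp1Δhrp3Δ, -0.57 for prf1Δ and -0.86 for the triple mutant, and protein-coding TMM factors moved it by 0.55, 0.51 and 0.57. In the wider list cns1, an Hsp90 co-chaperone gene, fell in prf1Δ (log2 ratio -2.55 ± 0.68 (SE), adjusted p = 0.0139).

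**Figure D4:**
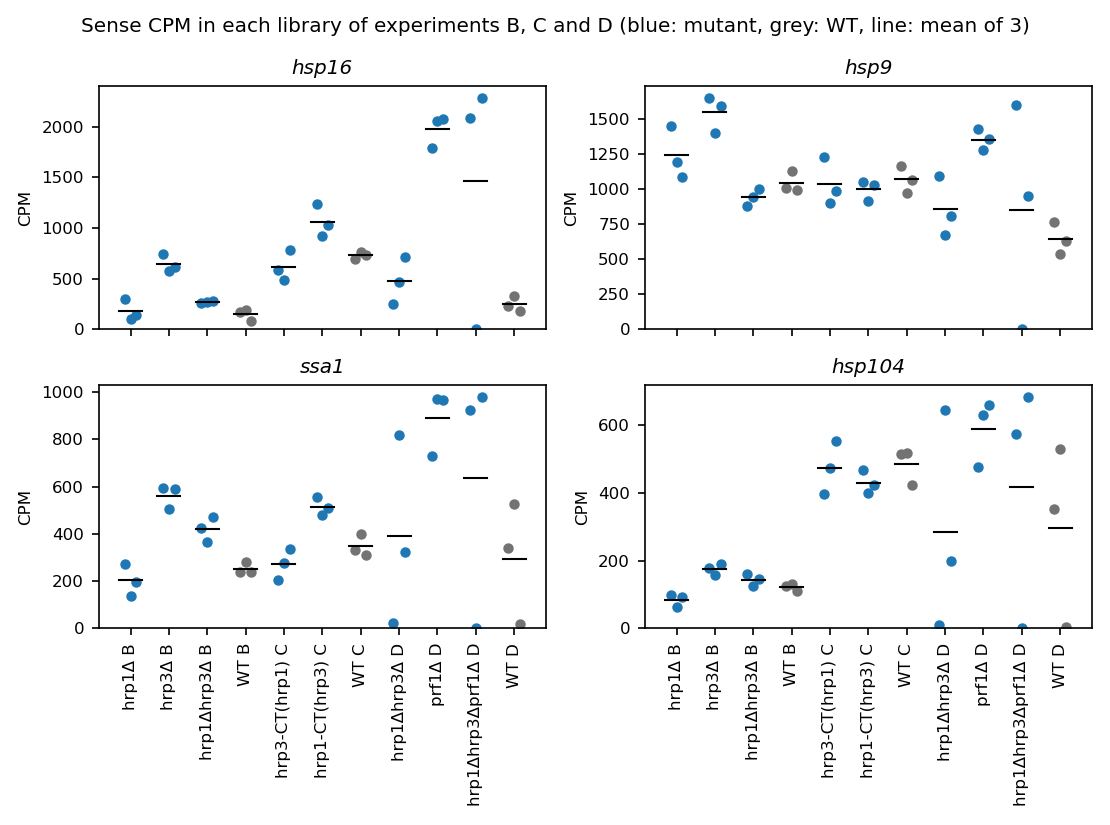
Sense CPM of 4 genes in every library of B, C and D (points, blue for mutants and grey for WT; lines are means of 3 libraries), with WT at the right of each experiment. hsp16 stood above WT in hrp3Δ of B and in prf1Δ of D, and 1 hrp1Δhrp3Δ library and 1 WT library of D were near 0 in ssa1 and hsp104.

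Antisense transcripts over the chaperone genes were rare. In WT of A-b1 they amounted to 0.00449% (hsp9) to 1.08% (ssa1) of the sense counts of the gene, and ssa1 had the highest share in every WT group, up to 3.97% in WT of C. Annotated non-coding RNAs run opposite to the coding sequence of all members except hsp16 and hsp90. In ssa1 1 such RNA covers 1933 of the 1935 bases, so the antisense counts of ssa1 can come from it. Between 4 and 6 of the 9 antisense entries passed the filter on low counts in each experiment or batch; hsp9 and hsp16 passed in none. Of 90 antisense tests 14 were called higher and 4 lower. The filter keeps an entry that is high enough in the libraries of 1 group alone. hsp90 and sti1 in A-b1, sti1 in C, and hsp90, ssa2, sti1 and psi1 in D averaged under 1 CPM in WT. They can have passed through the groups where they were raised, so their calls and the counts below are descriptions only.

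sti1 antisense was called higher in groups of A-b1, C and D. In experiment C it had 11.1, 11.9 and 11.8 CPM in libraries labelled hrp1-CT(hrp3), against 0.838, 0.758 and 0.976 CPM in WT (log2 ratio 3.52 ± 0.32 (SE), adjusted p = 2.14e-06). In D it had 11.2, 10.1 and 12.2 CPM in libraries labelled prf1Δ, against 1.41, 0 and 0 CPM in WT (log2 ratio 3.38 ± 0.94 (SE), adjusted p = 0.0175). For hrp3Δ of A-b1 125 antisense counts of sti1 stood against 2 in WT (5.68, 6.27 and 8.51 CPM, against 0.25, 0 and 0 CPM in WT), a ratio of 31 in CPM (exact 95% counting interval 8.41 to 259). The groups did not overlap in any of these. In the triple mutant the antisense log2 ratio of sti1 was 4.15, where the library with 3657 counts held 3, and without the 3 libraries that stood apart it was 3.37 ± 0.71 (SE), adjusted p = 0.00384. The 4 antisense entries tested in A-b1 gave 2 rises for hrp3Δ (background 55.3%), and hsp90 was the other, with 39 counts against 1 in WT (ratio 19.4, interval 3.28 to 784; adjusted p = 0.041). In B the antisense entry of sti1 did not pass the filter, with 7 counts in hrp1Δ, 18 in hrp3Δ and 25 in hrp1Δhrp3Δ, against 20 in WT. The hsp90 call of A-b1 was lost without WT replicate 1 or 2 or hrp3Δ replicate 2.

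psi1 had 18.3, 16.1 and 17.5 antisense CPM in libraries labelled prf1Δ, against 0.471, 1.12 and 0.507 CPM in WT (log2 ratio 3.69 ± 0.82 (SE), adjusted p = 0.00492). In libraries labelled hrp1-CT(hrp3) it had 6.42, 6.73 and 6.42 CPM, against 1.89, 1.3 and 0.976 CPM in WT (log2 ratio 1.96 ± 0.38 (SE), adjusted p = 0.000708). Both were without overlap. It was also higher in hrp1Δhrp3Δ of D (log2 ratio 2.83) and in the triple mutant (3.66), whose library with 3657 counts had none and so overlapped WT. hsp104 had 5.51, 6.23 and 6.03 antisense CPM in hrp1Δhrp3Δ of B, against 1.08, 1.97 and 2.25 CPM in WT (log2 ratio 1.35 ± 0.33 (SE), adjusted p = 0.00327), and rose in libraries labelled hrp1-CT(hrp3) (2.22), prf1Δ (2.64) and the triple mutant (3.03). ssa2 rose in those labelled hrp1-CT(hrp3) (0.88) and, without the 3 libraries that stood apart, in prf1Δ (2.41 ± 0.86 (SE), adjusted p = 0.0362) and the triple mutant (2.71 ± 0.95 (SE), adjusted p = 0.0402).

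These rises are read against the antisense entries of all protein-coding genes. In C 4 of 6 tested entries were higher in libraries labelled hrp1-CT(hrp3), where 74.8% of all tested antisense entries of protein-coding genes were. In those labelled hrp3-CT(hrp1) edgeR called 0 of 6 higher (4.38%), none had an unadjusted p under 0.05 and DESeq2 called none. The paper reports the reverse for these strains, with antisense raised in hrp3-CT(hrp1) and no such rise in hrp1-CT(hrp3). The antisense changes of the C groups are therefore tied to labels and not to strains. In B 1 of 4 was higher in hrp1Δhrp3Δ (65.4%). In hrp3Δ of B edgeR called 0 of 4 higher (48.5%), 1 of them (hsp104) had a higher ratio at an unadjusted p under 0.05, and DESeq2 called none. In D 1 of 6 was in hrp1Δhrp3Δ (36%), 3 of 6 in prf1Δ (43.5%) and 3 of 6 in the triple mutant (34.5%). The share of members was below the background in hrp3Δ of B and in both hrp1Δhrp3Δ groups. It was near the background for hrp3Δ of A-b1 (2 of 4, 55.3%), in libraries labelled hrp1-CT(hrp3) and in prf1Δ, and above it in the triple mutant. Only 4 to 6 members were tested, so these shares are coarse. In D the count for prf1Δ fell to 1 without WT replicate 2, and that for the triple mutant to 1 without WT replicate 1 or 2; psi1 in hrp1Δhrp3Δ was not called without WT replicate 1 or 2 or hrp1Δhrp3Δ replicate 1. mas5, with 41 counts in prf1Δ of D against 1 in WT, passed the filter there only without the 3 libraries that stood apart. Without them 7 entries were tested in D. Of these 2 (hsp104 and psi1) were higher in hrp1Δhrp3Δ (background 45.8%), 6 in prf1Δ (66.5%) and 5 in the triple mutant (57.5%). Those in the triple mutant were hsp104, hsp90, ssa2, sti1 and psi1, and in prf1Δ mas5 was higher as well.

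ssa1 was the member whose antisense fell. It had 9.43, 4.42 and 9.44 CPM in libraries labelled hrp1-CT(hrp3), against 12.6, 14.1 and 15 CPM in WT (log2 ratio -1.02 ± 0.25 (SE), adjusted p = 0.00382), without overlap. In B it had 2.48, 2.6 and 2.43 CPM in hrp1Δ (log2 ratio -1.12 ± 0.29 (SE), adjusted p = 0.022) and 3.59, 3.07 and 3.32 CPM in hrp3Δ (log2 ratio -0.84 ± 0.29 (SE), adjusted p = 0.03), against 4.04, 4.92 and 5.62 CPM in WT. In hrp1Δhrp3Δ of B it had 4.13, 4.43 and 2.37 CPM with overlap (log2 ratio -0.80 ± 0.28 (SE), adjusted p = 0.0273). Few antisense entries fell over all genes: 1.51% in libraries labelled hrp1-CT(hrp3), 1.24% in hrp1Δ, 1.91% in hrp3Δ and 3.3% in hrp1Δhrp3Δ of B. In B these calls were lost without single libraries: WT replicate 3 or any hrp1Δ library for hrp1Δ, WT replicate 3 or any hrp3Δ library for hrp3Δ, and WT replicate 3 or hrp1Δhrp3Δ replicate 3 for the double mutant. With protein-coding scaling it was not called in hrp3Δ (adjusted p = 0.0746) or hrp1Δhrp3Δ (0.105). The sense level of ssa1 rose in hrp3Δ of B, and whether the changes on the 2 strands are related was not tested.

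**Figure D5:**
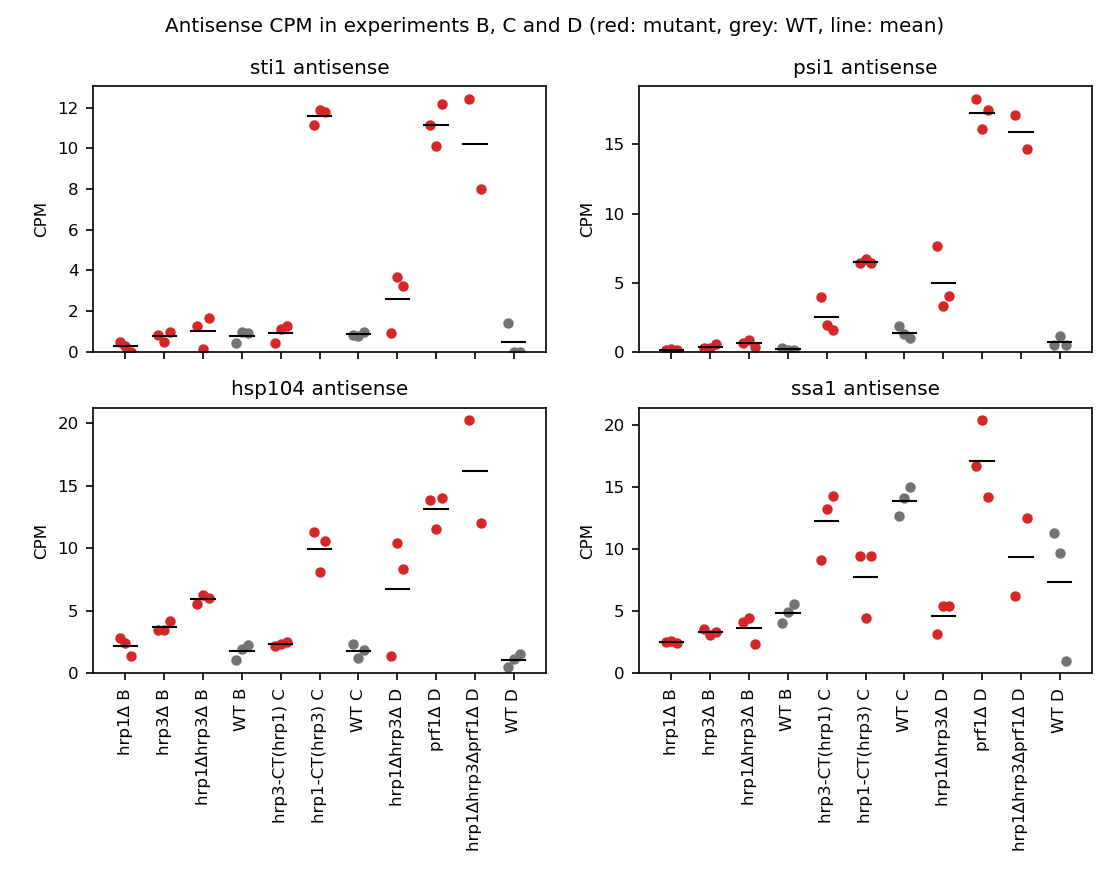
Antisense CPM of sti1, psi1, hsp104 and ssa1 in each library of B, C and D (points, red for mutants and grey for WT; lines are means), with WT at the right of each experiment and the triple mutant library with 3657 counts left out. sti1 and psi1 stood above WT in libraries labelled hrp1-CT(hrp3) and prf1Δ, while ssa1 was lower than WT in those labelled hrp1-CT(hrp3).

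Across the 71 libraries with at least 400000 counts, the genes outside the list whose log2(CPM + 1), less the mean of their experiment or batch, was most like that of hsp16 were tms1, cum1 and mug35 (Pearson r of 0.791, 0.785 and 0.769). Those most like hsp9 were gpx1, zym1 and pbi2 (0.762, 0.759 and 0.751), of which gpx1 and zym1 are stress genes on the list used here. The libraries share cultures, depth and batches, so these are descriptions only. WT replicate 3 and hrp1Δhrp3Δ replicate 1 of D, which were low in long entries, are among the 71, so likeness to these short entries can also reflect entry length.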

How the data were processed

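Strand-specific mRNA sequencing libraries of 72 cultures in 24 groups of 3 were used. The authors quantified reads with kallisto against sense and antisense transcript entries; the deposited values are estimated counts, which were rounded to whole numbers, and TPM, which the authors' quantification derived from counts and entry length. CPM is the estimated count per 1000000 counts of the library. Features were filtered with filterByExpr (minimum count 10, minimum total 15), scaled with TMM and tested with edgeR 4.0.16 quasi-likelihood fits in R 4.3.3, 1 fit for each experiment or batch, with p-values adjusted by Benjamini-Hochberg over all features. DESeq2 1.42.0 was an alternative, as were protein-coding TMM factors, no filter, a replicate block, the 2 groups alone and leaving out each library. The edgeR fit was tested on simulated counts with the library totals of WT and hrp3Δ of B, in which sense entries were changed. The joint fits, changes of antisense entries and the spread of the other experiments were not simulated. The 9 genes and all lists were chosen with earlier results of these data known. Named genes of the other chaperone list are hsf1 and, for each comparison, the largest called rise and fall whose 3 mutant libraries lay beyond all 3 WT libraries at a mean of at least 8 CPM. Promoters come from RefSeq ASM294v3, while the files use ASM294v2, so no coordinates are given.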

Additional observations from a re-analysis of the deposited data

Results flagged for a closer look

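The difference between the log2 ratios of the same labelled deletion in B and in A-b1 (B minus A-b1) was tested in a joint edgeR fit. For hrp1Δ the members that differed were hsp104 (-1.65 ± 0.21 SE, adjusted p = 0.000367), hsp90 (-1.19 ± 0.18 SE, adjusted p = 0.000743), ssa2 (-1.11 ± 0.17 SE, adjusted p = 0.000788), mas5 (-0.79 ± 0.17 SE, adjusted p = 0.00758) and psi1 (-0.70 ± 0.19 SE, adjusted p = 0.0344). For hrp3Δ they were hsp16 (3.18 ± 0.46 SE, adjusted p = 0.00016), hsp9 (1.65 ± 0.32 SE, adjusted p = 0.00213), ssa2 (-1.64 ± 0.17 SE, adjusted p = 4.92e-06), hsp90 (-1.0 ± 0.18 SE, adjusted p = 0.0011) and mas5 (-0.92 ± 0.17 SE, adjusted p = 0.00132).

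On the antisense strand the members that differed for hrp1Δ were hsp90 (-5.69 ± 1.66 SE, adjusted p = 0.0441) and sti1 (-3.88 ± 1.13 SE, adjusted p = 0.0438), and for hrp3Δ sti1 (-4.95 ± 1.01 SE, adjusted p = 0.00337). The antisense differences rest on WT libraries of A-b1 with 1 count (hsp90) and 2 counts (sti1) in all.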

How the results depend on the processing

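No sense member changed direction with a call, except hsp90 in libraries labelled hrp1-CT(hrp3), which had a log2 ratio of 0.23 (adjusted p = 0.00666, edgeR) when TMM factors came from protein-coding genes. Among 3572 results under an alternative, which include some medians over the sense members, 178 member results lost and 81 gained the call.

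With the mutant and WT libraries alone the numbers of sense members called were 3 (fft2Δ), 3 (fft3Δ), 1 (mit1Δ), 0 (rrp1Δ), 1 (rrp2Δ), 1 (irc20Δ), 5 (snf22Δ), 5 (hrp1Δhrp3Δ of B) and 1 (prf1Δ), and those of antisense members 1 (snf22Δ), 1 (hrp1Δhrp3Δ of B), 0 (hrp1Δhrp3Δ of D) and 1 (triple mutant). With protein-coding factors 6 sense members and 1 antisense member were called in hrp1Δhrp3Δ of B, and 2 antisense members in hrp1Δhrp3Δ of D. Without a filter on low counts there were 3 in mit1Δ and 1 in irc20Δ. DESeq2 called 5 sense members in hrp1Δ of B, 1 antisense member in hrp1Δ of A-b1 and 0 in hrp3Δ of B. Without the 3 libraries that stood apart, D gave 1 sense and 2 antisense members for hrp1Δhrp3Δ, 2 and 6 for prf1Δ, and 1 and 5 for the triple mutant.

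Leaving out 1 library, sense members called ranged from 2 to 6 (hrp1Δ of A-b1), 1 to 5 (mit1Δ), 2 to 5 (rrp1Δ), 1 to 5 (rrp2Δ), 0 to 4 (irc20Δ), 2 to 6 (hrp1Δ of B), 0 to 1 (libraries labelled hrp3-CT(hrp1)) and 0 to 1 (triple mutant). Antisense members ranged from 0 to 2 (fft2Δ), 0 to 1 (hrp1Δ of A-b1), 1 to 3 (hrp3Δ of A-b1), 0 to 1 (hrp1Δ of B), 0 to 1 (hrp3Δ of B), 1 to 2 (hrp1Δhrp3Δ of B), 0 to 2 (hrp1Δhrp3Δ of D), 1 to 3 (prf1Δ) and 1 to 3 (triple mutant), and those differing between B and A-b1 for hrp1Δ from 0 to 3. The causes of these changes were not tested, beyond the smaller number of libraries.

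Samples share replicate numbers across groups. In 0 of 19 comparisons did every same-numbered pair correlate above 0.1, and the main fits had no replicate block. Failing this rule does not show that the libraries are unpaired. With the replicate block 1 sense member was called in irc20Δ, 1 antisense member in hrp3Δ of A-b1, 0 in hrp1Δhrp3Δ of D, and 1 antisense member differed between B and A-b1 for hrp1Δ; of 306 member results 5 lost and 3 gained the call.

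Depth limits the antisense strand most, since WT of A-b1 held 1 antisense count of hsp90 and 2 of sti1. Intervals cover counting error only.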
